A study of Mus musculus with 21 samples.

Results

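The acyl-CoA metabolism genes of mouse liver were examined for open chromatin in DNase-seq peak lists. They were the 45 autosomal protein-coding genes of the GENCODE vM1 annotation (build mm9) whose symbols start with Acaa, Acad, Acot, Acox, Acsl, Acsm, Hadh, Cpt1 or Cpt2. The peaks of 18 livers, merged where they shared at least 1 bp, gave 68362 regions, of which 226 overlapped these genes or lay within 10 kb of them. At least 1 such region was found for 44 of the 45 genes; Acot10 had none. All livers came from untreated, pituitary-intact male CD-1 mice aged 8 to 10 weeks, and each liver was a separate animal. A gel shift assay for binding of the transcription factor STAT5 to DNA sorted the livers into STAT5_High (8 livers) and STAT5_Low (10 livers). The study asks how natural pulses of growth hormone, which activates STAT5 in liver, change chromatin accessibility. Another 3 livers titled as outliers by the submitters, 2 high and 1 low in the binding assay, had DNase-seq profiles resembling the opposite class, and 2 of them have a title and a treatment label that disagree on the class. They were not analysed here, so the choice of livers rested partly on the same kind of measurement as the comparison.

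Fatty acids enter metabolism as esters of coenzyme A. Acsl enzymes activate long-chain and Acsm enzymes medium-chain fatty acids. Cpt1 enzymes transfer the long acyl chains to carnitine for entry into mitochondria, and Cpt2 transfers them back to coenzyme A. Acad, Hadh and Acaa2 enzymes then shorten the acyl chains by beta-oxidation. Acox and Acaa1 enzymes do the corresponding work in peroxisomes, and Acot enzymes hydrolyse acyl-CoA back to free fatty acid. The liver uses this route to fuel ketone production in fasting, and many of the genes are known targets of the nuclear receptor PPARA. DNase I cuts open chromatin preferentially, so that promoters and enhancers in use appear as peaks of released fragments.

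The sequences below are 300-base windows of the NCBIM37 (mm9) reference, centred on the strongest summit over all livers. They are those of the 8 regions past a threshold below, shown because these regions carry the differences between the classes described further on. Capitals mark TTCNNNGAA, the palindromic STAT5 motif, which reads the same on either strand.
Acsm2 upstream, chr7:126694338-126694637, plus strand: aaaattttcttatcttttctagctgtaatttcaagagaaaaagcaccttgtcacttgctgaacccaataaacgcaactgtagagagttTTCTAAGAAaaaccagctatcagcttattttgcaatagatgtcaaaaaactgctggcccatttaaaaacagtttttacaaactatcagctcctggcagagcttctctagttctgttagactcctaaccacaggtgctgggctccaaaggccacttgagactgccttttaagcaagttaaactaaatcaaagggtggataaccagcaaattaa
Acsm1 intron, chr7:126763761-126764060, plus strand: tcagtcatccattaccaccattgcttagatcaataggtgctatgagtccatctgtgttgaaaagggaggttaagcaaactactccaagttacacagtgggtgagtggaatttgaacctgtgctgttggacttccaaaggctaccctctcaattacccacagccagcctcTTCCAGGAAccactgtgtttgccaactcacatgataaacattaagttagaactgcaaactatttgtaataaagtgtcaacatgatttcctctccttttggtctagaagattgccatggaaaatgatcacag
Cpt1a intron, distal, chr19:3353637-3353936, plus strand: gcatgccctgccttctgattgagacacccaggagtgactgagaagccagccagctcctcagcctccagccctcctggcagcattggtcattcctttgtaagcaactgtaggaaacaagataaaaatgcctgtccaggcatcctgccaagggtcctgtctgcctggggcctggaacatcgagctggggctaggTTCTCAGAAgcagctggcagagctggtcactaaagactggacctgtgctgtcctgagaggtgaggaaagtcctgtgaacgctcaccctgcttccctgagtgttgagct
Cpt1a intron, proximal, chr19:3326444-3326743, plus strand: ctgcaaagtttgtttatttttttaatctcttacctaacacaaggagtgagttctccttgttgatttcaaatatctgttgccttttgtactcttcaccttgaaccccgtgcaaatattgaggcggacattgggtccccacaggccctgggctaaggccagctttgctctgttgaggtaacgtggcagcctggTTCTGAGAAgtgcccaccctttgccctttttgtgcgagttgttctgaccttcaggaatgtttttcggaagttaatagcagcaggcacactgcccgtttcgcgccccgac
Hadhb downstream, chr5:30514682-30514981, plus strand: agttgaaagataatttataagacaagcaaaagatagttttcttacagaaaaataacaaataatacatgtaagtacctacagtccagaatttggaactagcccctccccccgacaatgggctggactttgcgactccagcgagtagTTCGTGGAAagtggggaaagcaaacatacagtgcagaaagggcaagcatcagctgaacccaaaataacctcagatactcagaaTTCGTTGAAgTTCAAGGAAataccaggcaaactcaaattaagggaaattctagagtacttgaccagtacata
Acot12 intron, chr13:91888052-91888351, plus strand: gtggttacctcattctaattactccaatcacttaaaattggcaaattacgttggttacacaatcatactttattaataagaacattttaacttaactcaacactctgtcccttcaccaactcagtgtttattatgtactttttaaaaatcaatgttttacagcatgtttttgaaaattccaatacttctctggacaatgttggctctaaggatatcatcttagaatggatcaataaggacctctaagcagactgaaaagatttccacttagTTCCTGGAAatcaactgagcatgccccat
Acsm2 intron, chr7:126702650-126702949, plus strand: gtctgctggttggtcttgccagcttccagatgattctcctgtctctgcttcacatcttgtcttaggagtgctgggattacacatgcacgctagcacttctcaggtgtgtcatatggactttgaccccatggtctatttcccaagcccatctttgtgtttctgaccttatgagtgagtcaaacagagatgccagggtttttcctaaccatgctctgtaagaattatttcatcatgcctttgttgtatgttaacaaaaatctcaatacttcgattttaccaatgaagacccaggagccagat
Acsl1 intron, chr8:47563175-47563474, plus strand: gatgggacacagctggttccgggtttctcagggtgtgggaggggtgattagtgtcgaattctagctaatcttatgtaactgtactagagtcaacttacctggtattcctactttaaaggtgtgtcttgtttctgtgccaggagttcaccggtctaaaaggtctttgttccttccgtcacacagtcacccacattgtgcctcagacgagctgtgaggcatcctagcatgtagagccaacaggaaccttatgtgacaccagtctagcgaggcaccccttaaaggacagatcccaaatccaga
The last 2 windows, also from regions that differed between the classes, hold no TTCNNNGAA.

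The libraries held 12890880 to 23395665 tags (13815438 to 17504539 in STAT5_High) and 18673 to 45144 peaks. The STAT5_High livers had a peak in 75 to 140 of the 226 regions (median 124.5) and the STAT5_Low livers in 117 to 164 (median 135). The lowest count belonged to STAT5_High replicate 4, which also had the fewest peaks, and the groups overlapped. Promoters of 6 of 8 hepatocyte marker genes had a peak in all 18 livers, with a summed summit pileup, scaled to 1000000 tags of the library, of 14.8 to 45.8 in STAT5_High and 30.3 to 49.8 in STAT5_Low; Serpina1a had none. Among other cell types, 0 of 6 macrophage markers had a promoter peak in any liver. The endothelial markers had a promoter peak in all livers for 1 of 6 genes, with sums of 2.17 to 6.59 and 1.27 to 4.69 in the respective classes. The stellate cell, cholangiocyte and lymphocyte lists had such a peak for 0 of 6, 1 of 5 and 0 of 5 genes. Their sums reached at most 3.98, 5.31 and 0.724 in STAT5_High and 3.01, 4.89 and 0.696 in STAT5_Low, and their part in the results was not tested.

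Open regions of the acyl-CoA genes ranged from those shared by every liver to those found in a single one. All 18 livers shared 53 of the 226 regions (23.5%), and 43 (19.03%) were found in 1 liver alone, against 17.2% and 21.6% of all regions. A further 53 were found in 14 to 17 livers, 46 in 5 to 13 and 31 in 2 to 4. Introns held 88 regions, promoters (within 1 kb of an annotated transcription start of the acyl-CoA gene) 54, and stretches outside the gene 77. The other 7 lay in coding exons, UTRs or other exons. Promoters made up 23 of the 53 regions found in every liver. The Cpt2, Cpt1 and Acsm families had the highest shares of regions open in every liver, at 2 of 3, 7 of 16 and 10 of 23, and Acaa the lowest, at 3 of 23.

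**Figure D1:**
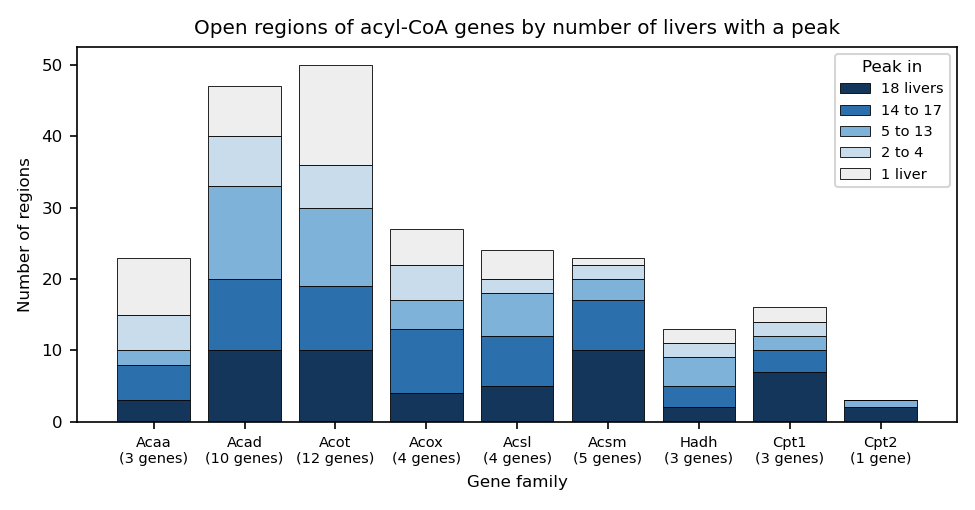
Number of open regions (y axis) of each gene family (x axis), stacked by the number of livers with a peak. Acot had the most regions, 50, of which 10 were found in all 18 livers.

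The strength of a peak was taken as the pileup at its summit (the number of overlapping extended reads), scaled to 1000000 tags of the library and called the per-million pileup. The promoter of Acsl1 (long-chain acyl-CoA synthetase, the main form in liver) was among the strongest, with a per-million pileup of 13.3 ± 5.98 (SD, n = 8) in STAT5_High and 14.8 ± 2.89 (SD, n = 10) in STAT5_Low. That of Acaa2 (mitochondrial thiolase) had 12.8 ± 4.47 and 13.6 ± 2.64. Neither promoter differed from the other, or between the classes, by more than the spread among livers. Acot8 (peroxisomal thioesterase) had 8.17 ± 2.43 and 8.67 ± 1.57 at a promoter shared with Zswim3. The single region between Hadha and Hadhb, the divergent genes of the trifunctional protein subunits, had 6.27 ± 2.33 and 6.76 ± 1.86.

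A promoter peak was found in all 18 livers for 24 of the 45 genes, in 14 to 17 livers for 6, in 1 to 13 for 10 and in no liver for 5. The genes with none were Acot10, Acsl6, Acsm4, Cpt1b (the muscle form of carnitine palmitoyltransferase) and Cpt1c (the brain form). The weakest promoter peak was that of Acoxl, called in 0 of 8 STAT5_High and 2 of 10 STAT5_Low livers at per-million pileups of 0.650 and 0.679. Cpt1a is the liver form and the rate-setting step of mitochondrial fatty acid oxidation. It had a peak within 1 kb of its annotated start in only 3 livers, all STAT5_Low. They were replicates 3, 4 and 5, all of G74A, 1 of 3 collections of livers described further on. They held 17473312, 23395665 and 21546081 tags, and the part of collection or depth was not tested. The Cpt1a promoter peak had a per-million pileup of 3.04 ± 0.952 (SD, n = 3) in these livers. Its fold enrichment over the surrounding reads was only 2.75, 2.24 and 2.39 in replicates 3, 4 and 5. Regions of the gene's first 10 kb were open in every liver. The genes Acot1 to Acot6 lie side by side on chromosome 12 and are close paralogs, among which short reads can be split. How reads matching several places were handled is not given in the sources used here, so their values are uncertain.

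Between the classes, pileup rose in STAT5_High livers at 5 acyl-CoA regions and fell at none of the 53 with a peak in all livers. The 5 regions belong to Acsm2 (2 regions), Acsm1, Cpt1a and Acot12. In whole liver, a region open in more cells and a region more open in each cell cannot be told apart. Over all 11748 regions so tested, 3.86% were higher and 0.238% lower in STAT5_High (limma on log2 per-million pileup, two-sided, Benjamini-Hochberg adjusted p under 0.05). The 53 regions had a median log2 difference of -0.15, against -0.17 for all tested regions, with 18 positive and 35 negative. These signs differed by collection of livers, as given further on. With each library centred on its own median, which moves both medians up by about 0.11, they were -0.04 and -0.06. The count of 5 in 53 regions is therefore read beside a background of 3.86%, and nothing particular to the family list is drawn from it. No region among the 53 had all STAT5_High livers above all STAT5_Low livers in pileup, which 0.8% of all tested regions had, and none had the opposite, which 0.0255% had.

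**Figure D2:**
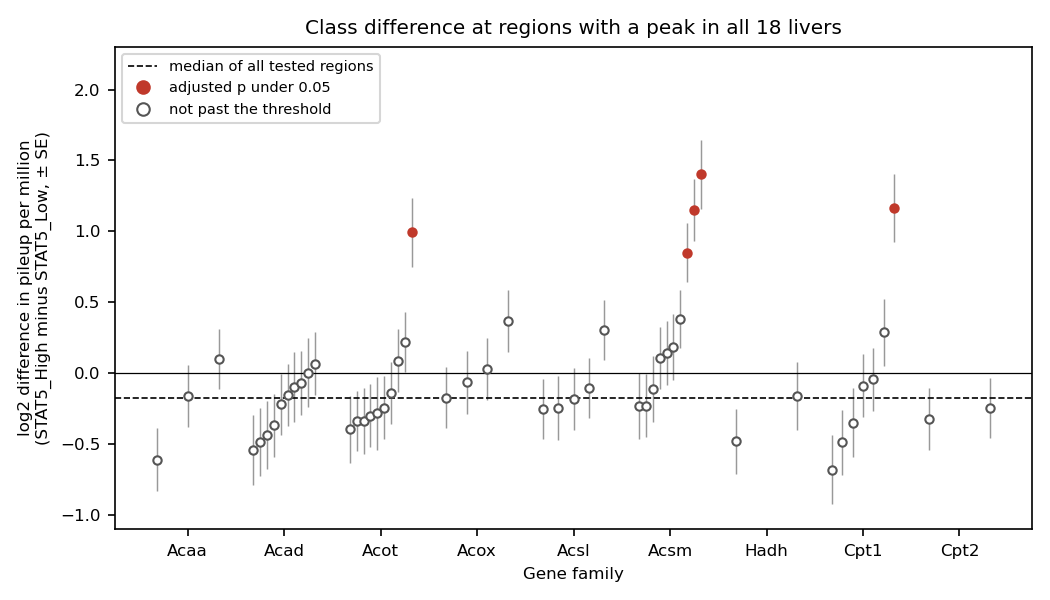
Difference in log2 per-million pileup (STAT5_High minus STAT5_Low, ± SE; y axis) at each of the 53 regions with a peak in all livers, by gene family (x axis). Filled points, 3 in Acsm and 1 each in Acot and Cpt1, passed the threshold; the dashed line is the median of all tested regions, -0.17.

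Among the fatty acid activating enzymes, the Acsm genes, which lie in 1 cluster on chromosome 7 from 126669818 (start of Acsm5) to 126931027 (end of Acsm3), held 3 of the 5 regions that rose. The region chr7:126693860-126694893 lies 3090 bp upstream of Acsm2, a medium-chain acyl-CoA synthetase, and 6553 bp beyond the end of Acsm5. Its per-million pileup in STAT5_High livers was 3.56 at the lowest, 7.11 at the median and 8.18 at the highest, and in STAT5_Low livers 1.24, 2.52 and 4.87. All STAT5_High livers but 1 (replicate 2) lay above every STAT5_Low liver, so the groups overlapped through that liver. The log2 difference was 1.40 ± 0.246 (SE), 2.64-fold, with an adjusted p of 6.21e-05 in limma. Fold enrichment, which compares the summit with the surrounding reads of the same library, rose there too, by 0.57 ± 0.130 on the log2 scale (limma adjusted p = 0.00769).

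The region chr7:126702436-126703110, in an intron of Acsm2 and 1897 bp from the nearest annotated transcript start, had 2.54, 4.93 and 8.15 in STAT5_High (lowest, median, highest) and 1.43, 2.34 and 2.72 in STAT5_Low. Here too only STAT5_High replicate 2 fell within the STAT5_Low range. Pileup rose by 1.15 ± 0.221 on the log2 scale (2.22-fold, limma adjusted p = 0.000241) and fold enrichment by 0.68 ± 0.150 (limma adjusted p = 0.00526). This region is separated by 260 bp from a promoter region of the same gene, chr7:126703371-126704106, whose log2 pileup difference was 0.38 (limma adjusted p = 0.422), and 0.49 after centring (limma adjusted p = 0.0249).

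In an intron of Acsm1, another medium-chain synthetase, the region chr7:126763372-126764331 was the strongest of the 10 Acsm regions found in all livers. Its per-million pileup was 9.54, 13.7 and 22.2 in STAT5_High and 6.35, 7.05 and 12.6 in STAT5_Low. The groups overlapped, with STAT5_Low replicate 8 the highest of its class and STAT5_High replicate 2 the lowest of its own. The log2 difference was 0.85 ± 0.210 (1.80-fold, limma adjusted p = 0.00699); that in fold enrichment was 0.36 ± 0.115 (limma adjusted p = 0.0901), short of the threshold, and passed it without STAT5_High replicate 1 (0.0270) or without STAT5_Low replicate 6 (0.0473). At the internal Acsm1 transcript start nearby, chr7:126761128-126761505 was called in 8 of the 8 STAT5_High livers and 4 of the 10 STAT5_Low livers (two-sided Fisher's exact test, p = 0.0128, adjusted p = 0.181). Its neighbour 261 bp away, chr7:126761767-126762571, had a peak in 4 and 10 livers.

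The other 7 Acsm regions with a peak in all livers had log2 differences of -0.23 to 0.38, none past the threshold. The promoters of Acsm5 and Acsm3, for example, had log2 differences of 0.19 and 0.14. The family's median over its 10 regions was 0.16, the only positive median among the 9 families, although Acox (0.09) and Cpt1 (0.02) were positive too after centring, and no difference between families was tested.

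**Figure D3:**
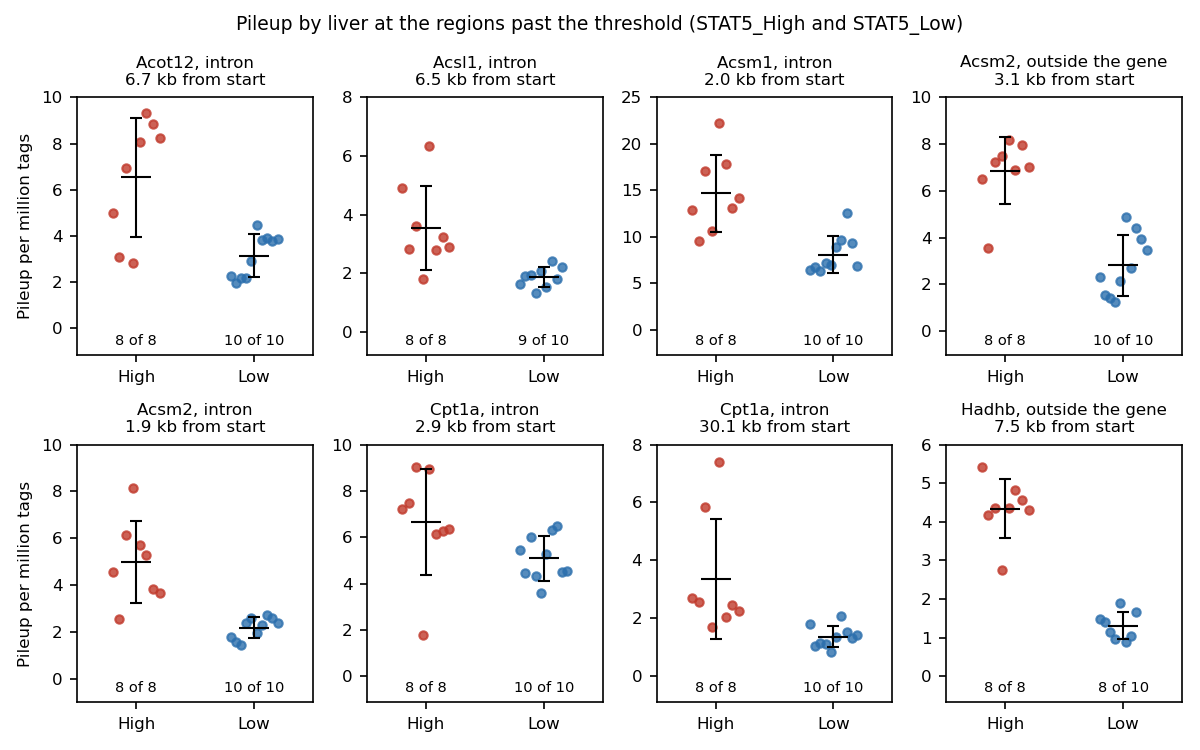
Per-million pileup in each liver (points) with mean ± SD (bars) in STAT5_High and STAT5_Low, for the 8 regions past the threshold in pileup or fold enrichment, including those with a peak in 14 to 17 livers; the number of livers with a peak is printed under each group. The Hadhb groups do not overlap among livers with a peak, from 2.76 upward against 1.89 at most. How many of all regions in 14 or more livers separate in this way was not counted.

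The Acsl genes, which activate long-chain fatty acids, had 5 regions in all livers, none of which passed the threshold (log2 differences of -0.25 to 0.30). In an intron of Acsl1, chr8:47563060-47563750 had a peak in 8 of 8 STAT5_High livers (per-million pileup 1.80, 3.07 and 6.33) and 9 of 10 STAT5_Low livers (1.33, 1.92 and 2.41). The ranges overlapped, the higher values being STAT5_High. In the limma fit on the 25264 regions with a peak in 14 or more livers, which drops livers without a peak, its log2 difference was 0.85 ± 0.217 (adjusted p = 0.0121) and that of fold enrichment 0.49 ± 0.115 (adjusted p = 0.00787). That fit called 7 of 106 acyl-CoA regions higher and 0 lower in pileup, against 3.65% and 0.206% of all regions. The next region of Acsl1, 71 bp away (chr8:47563822-47564728), had a log2 difference of 0.30 (limma adjusted p = 0.507). Farther along the gene, chr8:47567182-47567577 had a peak in 5 of 8 STAT5_High livers, at per-million pileups of 1.73 to 6.51, and in 0 of 10 STAT5_Low livers (two-sided Fisher's exact test, p = 0.00654, adjusted p = 0.137).

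Cpt1a, whose product makes the carnitine esters, had 10 regions, 6 of them in every liver. At chr19:3353381-3354340, an intronic region 30080 bp from the start, per-million pileup was 1.67, 2.50 and 7.40 in STAT5_High (lowest, median, highest) and 0.835, 1.32 and 2.06 in STAT5_Low. The 2 highest livers were both STAT5_High of the collection G92, and the groups overlapped. The log2 difference was 1.16 ± 0.239 (2.24-fold, limma adjusted p = 0.000664). Its fold enrichment was 7.38 to 15.1 in STAT5_High and 3.49 to 6.64 in STAT5_Low, with no overlap, and rose by 0.92 ± 0.151 on the log2 scale (limma adjusted p = 0.000231). It was the only 1 of the 53 acyl-CoA regions with all STAT5_High livers above all STAT5_Low livers in fold enrichment, which 0.553% of all tested regions had.

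The proximal intronic region chr19:3326153-3326906, 2852 bp from the start of Cpt1a, had fold enrichments of 5.56, 7.21 and 10.9 in STAT5_High and 3.67, 4.69 and 6.87 in STAT5_Low. Most STAT5_High livers lay above the STAT5_Low range. Fold enrichment rose by 0.62 ± 0.133 on the log2 scale (limma adjusted p = 0.00451), whereas the log2 difference in pileup was 0.29 ± 0.237 (limma adjusted p = 0.562). STAT5_High replicate 4 had the lowest pileup, 1.80 against a class median of 6.801, and without it the log2 pileup difference was 0.54 (limma adjusted p = 0.04998). Only 27 bp separate this region from chr19:3325085-3326125, whose log2 pileup difference was -0.49 (limma adjusted p = 0.338). An intronic region at chr19:3333963-3334510 was called in 5 of the 8 STAT5_High livers and 0 of the 10 STAT5_Low livers (two-sided Fisher's exact test, p = 0.00654, adjusted p = 0.137). The authors' peak lists on the pooled reads of each class had a peak there in both. Its per-million pileup was 1.24 in pooled STAT5_High and 0.590 in pooled STAT5_Low. The remaining Cpt1a regions found in all livers had log2 pileup differences between -0.68 and -0.04; the lowest, chr19:3388152-3389526 (limma adjusted p = 0.120; -0.57 and 0.0409 after centring), lies 2420 bp downstream and covers the promoter of Mtl5. Both Cpt2 regions in all livers, promoter and downstream, had log2 differences of -0.32 and -0.24, neither past the threshold.

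**Figure D4:**
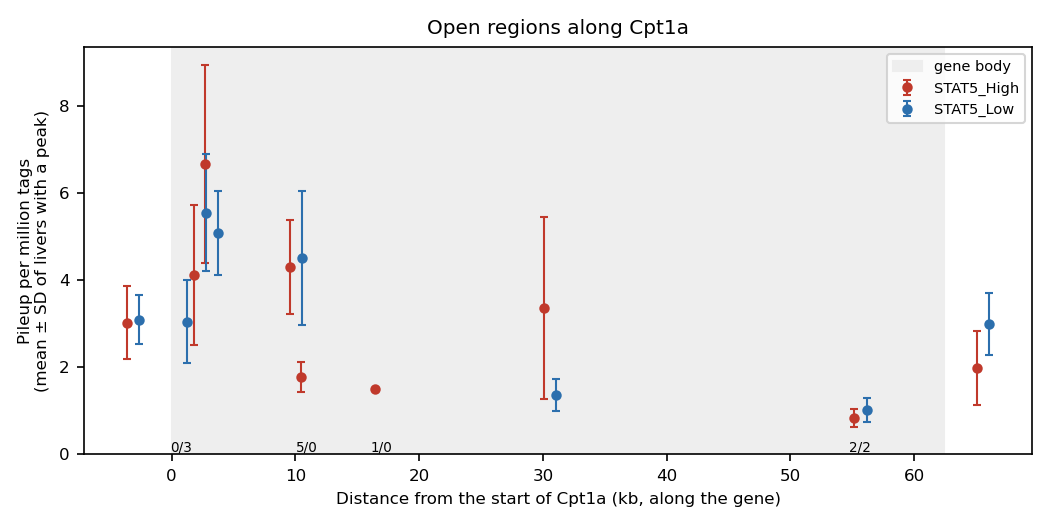
Open regions along Cpt1a: per-million pileup (y axis, mean ± SD of livers with a peak) against distance from the gene's start in kb (x axis), with the gene body shaded. Pairs of numbers give STAT5_High and STAT5_Low livers with a peak where some lacked one; the region at 30 kb had 3.36 ± 2.08 in STAT5_High and 1.35 ± 0.366 in STAT5_Low.

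For the enzymes of mitochondrial beta-oxidation, no region with a peak in all livers passed the threshold: the 10 Acad regions had log2 pileup differences of -0.54 to 0.07, and the 2 of Hadh and Hadha -0.48 and -0.16. The lowest Acad value was at the promoter of Acad12, with 3.72 ± 1.69 in STAT5_High and 4.94 ± 1.02 in STAT5_Low (limma adjusted p = 0.314). A region 3140 bp downstream of Hadhb, the beta subunit of the trifunctional protein, chr5:30514273-30515278, was called in 8 of the 8 STAT5_High livers and 8 of the 10 STAT5_Low livers. Its per-million pileup was 2.76, 4.36 and 5.43 in STAT5_High and, in the livers with a peak, 0.889, 1.28 and 1.89 in STAT5_Low. Among livers with a peak, the groups did not overlap. How many of all regions in 14 or more livers separate in this way was not counted. This region was chosen after its values were seen. With the 2 livers lacking a peak dropped, the log2 difference was 1.75 ± 0.210 (3.37-fold, adjusted p = 1.34e-07 in limma over regions in 14 or more livers), the largest among the 106 acyl-CoA regions so tested. Fold enrichment rose by 1.05 ± 0.139 on the log2 scale in the same fit (limma adjusted p = 9.46e-06).

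Downstream of Acadsb (short/branched chain acyl-CoA dehydrogenase), chr7:138592504-138593206 had a peak in 6 of 8 STAT5_High livers, at per-million pileups of 1.00 to 5.49, and in 1 of 10 STAT5_Low livers, at 0.884 (two-sided Fisher's exact test, p = 0.0128, adjusted p = 0.181). The region lies 2779 bp beyond the end of Acadsb. It is also within the annotated Fgfr2 gene, whose span from 137305965 to 140315033 covers all of Acadsb too. In the peak lists that the authors called on pooled reads of each class, the region's per-million pileup was 1.65 and 0.271.

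Among the peroxisomal enzymes, none of the 4 Acox regions found in all livers passed the threshold in pileup. The highest log2 difference, 0.37, was in an intron of Acox2 (bile acid side chain oxidation), with per-million pileups of 8.79 ± 3.55 in STAT5_High and 6.52 ± 1.44 in STAT5_Low (limma adjusted p = 0.467). At Acaa1b, a peroxisomal thiolase, the region chr9:119073762-119075045, 7551 bp upstream, had 2.12, 3.91 and 6.59 in STAT5_High and 3.98, 5.32 and 8.68 in STAT5_Low. Gm10608 and Slc22a14 lie nearer to this region, at 2975 and 3528 bp. The groups overlapped, and the log2 difference of -0.61 did not pass the threshold (limma adjusted p = 0.140), but did so after centring (-0.50, limma adjusted p = 0.0351).

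Of the thioesterases, Acot12, a cytosolic acetyl-CoA hydrolase of liver, had the region that rose, chr13:91887855-91888631, in an intron 6717 bp from the start. Its per-million pileup was 2.82, 7.50 and 9.33 in STAT5_High and 1.98, 3.35 and 4.48 in STAT5_Low. The groups overlapped, and the lowest STAT5_High values were those of replicates 2 and 4. The log2 difference was 0.99 ± 0.243 (1.99-fold, limma adjusted p = 0.00627) and that of fold enrichment 0.61 ± 0.148 (limma adjusted p = 0.0128). The gene's promoter had per-million pileups of 5.15 ± 2.24 and 6.45 ± 1.71 (log2 difference -0.40, limma adjusted p = 0.469). The other 9 Acot regions in all livers had log2 differences of -0.40 to 0.22. Intronic regions of Acot11 (chr4:106436799-106437411) and Acot7 (chr4:151617249-151617817) were each called in 0 of the 8 STAT5_High livers and 5 of the 10 STAT5_Low livers (two-sided Fisher's exact test, p = 0.0359, adjusted p = 0.303). At Acot11 both pooled lists had a peak, with per-million pileups of 0.303 in STAT5_High and 0.471 in STAT5_Low. The Acot7 peaks were those of STAT5_Low replicates 1, 2, 3, 5 and 7, of which only replicate 7 is outside G74A.

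The regions that rose were not promoters. None of the 23 promoter regions with a peak in all livers passed the threshold in pileup (log2 differences of -0.54 to 0.38; smallest limma adjusted p 0.314) or fold enrichment (smallest 0.0900), whereas 5 of the 30 other regions did in each measure. After centring, 1 of the 23 promoters and 7 of the 30 others passed in pileup, 6 of them higher and 2 lower, against 7.35% and 1.23% of all regions. Promoters here are those of the acyl-CoA genes, so the other regions can include promoters of other genes. The region over the Mtl5 promoter, among those lower after centring, is such a case. The difference between promoters and other regions was not itself tested. Over all tested regions, 3.86% were higher in pileup. That share was not split into promoters and other regions, so nothing particular to these genes is drawn from the contrast. In fold enrichment, 5 of the 53 regions were higher and 0 lower in STAT5_High, against 3.15% and 0.238% of all tested regions; they were both Acsm2 regions, Acot12 and the pair of Cpt1a regions. After centring the fold enrichments, 4.24% of all regions were higher and 0.596% lower, and in the fit on regions in 14 or more livers 2.94% and 0.206%; the acyl-CoA regions called were then 6 higher and 0 lower, and 7 higher and 0 lower.

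Whether a peak was called at all differed less clearly. Of the 46 acyl-CoA regions with a peak in 5 to 13 livers, 0 passed the threshold in either direction, against 0.979% higher and 0.134% lower among the 15631 regions tested (Fisher's exact test, two-sided, with Benjamini-Hochberg adjustment). Without adjustment, 5 were higher and 2 lower at a p under 0.05, against backgrounds of 6.01% and 8.09%. Peaks were more frequent in STAT5_Low at 36 of the 46 (78.3%), against 70.8% of all tested regions, and in STAT5_High at 10; STAT5_Low libraries also held more tags and peaks, and the part of depth in this was not tested. When each list was cut to its 18673 strongest peaks, 3 of the 31 acyl-CoA regions then tested were called by presence, all higher in STAT5_High, against 5.56% higher and 0.489% lower among all 8178 regions so tested: the Acsl1 region at 47563060 (8 of 8 against 1 of 10, adjusted p = 0.0141), the distal Cpt1a region and the Hadhb region (each 8 of 8 against 2 of 10, adjusted p = 0.0293 in the exact test).

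**Figure D5:**
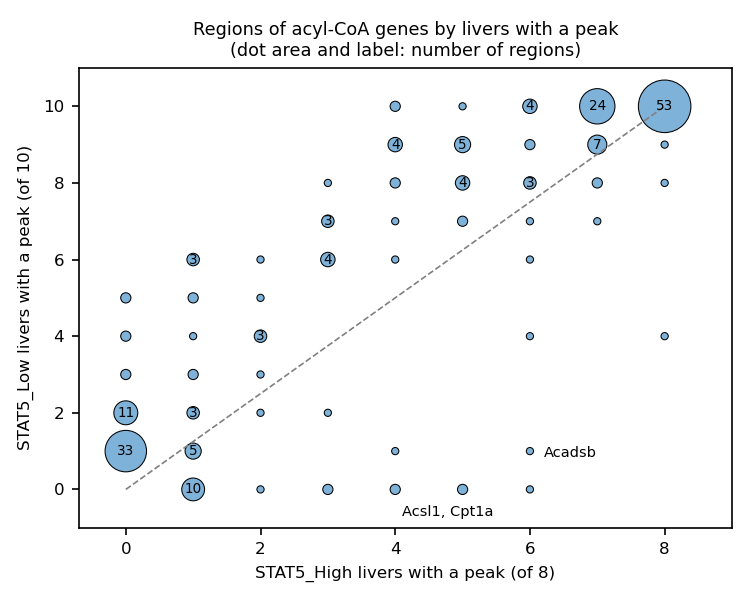
Number of STAT5_High livers (x axis, of 8) and STAT5_Low livers (y axis, of 10) with a peak, for the 226 acyl-CoA regions; dot area and the printed number give the regions at each point, and the dashed line marks equal shares. The Acsl1, Cpt1a and Acadsb regions at the lower right had peaks in 5 or 6 STAT5_High and 0 or 1 STAT5_Low livers.

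The livers fell into 3 collections named in the labels, G74A (2 STAT5_High, 5 STAT5_Low), G92 (3 and 2) and G99 (3 and 3). What a collection is the labels leave unsaid. Over the 53 regions found in all livers, the median log2 pileup difference was 0.21 within G74A (44 positive, 9 negative), -0.34 within G92 (12 and 41) and -0.11 within G99 (14 and 39). Over all tested regions it was 0.23, -0.36 and -0.25. At each of the 5 regions whose pileup rose, the log2 difference was positive within every collection: 1.52, 1.07 and 0.89 upstream of Acsm2, 0.83, 1.64 and 0.72 in the Acsm2 intron, 0.73, 0.78 and 0.69 in Acsm1. It was 1.19, 1.33 and 0.67 at the distal Cpt1a region and 0.78, 0.38 and 1.19 in Acot12. These regions were called on the same livers, so their signs within collections are not independent of the call. In limma fits within single collections, 2 of these 5 passed the threshold in G74A (upstream of Acsm2 and distal Cpt1a), 0 in G92, where limma called 0 of all 11748 regions, and 2 in G99 (upstream of Acsm2 and Acot12). The Hadhb region had mean per-million pileups of 4.80 and 1.25, 3.82 and 1.89, and 4.56 and 1.19 in STAT5_High and STAT5_Low of the respective collections. Only livers with a peak enter these means. In STAT5_Low they were 4 of 5, 1 of 2 and 3 of 3, so the G92 value is that of 1 liver. A limma interaction of class and collection called 0 of the 53 regions in pileup (smallest adjusted p 0.794) and 0 in fold enrichment (0.966), with 1 and 2 at an unadjusted p under 0.05; over all 11748 regions it called 1 and 0, so it does not show that the differences were alike. Some regions turned sign: the log2 pileup differences in G74A, G92 and G99 were 0.14, -1.24 and -0.55 upstream of Acaa1b, 0.19, -0.87 and -0.54 at the Acad12 promoter, and 0.20, -0.86 and -0.50 at Hadh.

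The motif TTCNNNGAA, printed in capitals in the windows above, was found somewhere in 4 of the 5 regions whose pileup rose and in 5 of the 6 that rose in pileup or fold enrichment. It was found in 18 of the 47 other acyl-CoA regions with a peak in all livers, in 28.8% of all regions with a peak in all livers and in 76.4% of the 453 regions of the whole table whose pileup rose. In 300-base windows on the summit, it stood in 32 of the 226 acyl-CoA regions (14.2%), 12.5% of all 68362 regions and 60.5% of those 453 regions. The Hadhb region holds 5 matches, 3 of them in the printed window. A PPARA-type direct repeat, 2 copies of AGGTCA with 1 base between them, on either strand and with up to 2 mismatches, was found in 27 of the 226 windows (11.9%), against 9.07% of all windows, and in none of the 8 regions drawn in the plot of pileup by liver. A match to letters is a description and not evidence of binding.

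A wider list of fatty acid genes outside these families (among them transporters, transcriptional regulators, ketone body and other oxidation enzymes) gave 257 regions for the 35 of 36 names that matched. Of its 47 regions with a peak in all livers, 2 (4.26%) rose in pileup and 0 fell, against 3.86% and 0.238% of all tested regions. The median log2 difference was -0.20, against -0.17 for all tested regions. Both regions that rose were at Scp2, a peroxisomal thiolase and sterol carrier. The stronger log2 difference, at chr4:107803082-107803932, was 1.38 (limma adjusted p = 3.79e-05). Per-million pileups there were 3.43, 4.50 and 9.79 in STAT5_High and 1.13, 2.07 and 3.12 in STAT5_Low. Ppara itself had a log2 difference of -0.36 (limma adjusted p = 0.497) at its region with the smallest p.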

How the data were processed

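Liver DNase-seq peak lists of 18 animals were used as deposited. Per the file headers, the authors called peaks on each liver's own reads with MACS2 2.1.0.20150731, without a control library, with a shift of -100, an extension of 200 bases and a q cutoff of 0.05; the submitters' processing notes also name Bowtie2 and mm9. The deposited pileup is the authors' unscaled signal at a summit, the deposited fold enrichment is their ratio to the local background, and the deposited -log10 q, per the file headers, was used only to rank or filter peaks.

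Peaks sharing 1 bp or more were merged. The highest pileup in a region was scaled to 1000000 tags of the library's header. Pileup and fold enrichment were tested with limma 3.58.1 on log2 values (no pseudocount) at regions with a peak in all 18 livers. Presence was tested with Fisher's exact test (scipy 1.17.1) at regions in 5 to 13 livers, all p-values being adjusted over the whole table. Livers without a peak have no value: absence means that no peak was called at this depth. The tests were checked on simulated data.

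The genes, lists and tests were chosen with earlier results of these data known. Regions named were those past the threshold, those with the smallest p of each family, the highest and lowest promoters, and those with an unadjusted presence p under 0.05 holding the motif; the Hadhb, Acsl1 (47563060), Acot7, Scp2, Mtl5-promoter and other further regions were chosen after their values were seen. Some regions that this rule names are not reported here. Replicate numbers do not mark pairs. Alternatives were other scalings, filters, covariates and each liver left out.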

Additional observations from a re-analysis of the deposited data

Results flagged for a closer look

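In 3 of 52 groups of livers examined, 1 liver stood apart from the rest of its class by Dixon's criterion at 95%, where chance flags about 1 in 20 groups. STAT5_High replicate 4 had a peak in 75 acyl-CoA regions, against a class median of 124.5. The same liver had a per-million pileup of 1.80 at the proximal Cpt1a region chr19:3326153-3326906, against a class median of 6.801. STAT5_High replicate 2 had a per-million pileup of 3.56 upstream of Acsm2, against a class median of 7.11.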

How the results depend on the processing

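Each of the 5 pileup and 5 fold enrichment calls at acyl-CoA regions kept its direction and its side of the threshold under the alternatives that used all 3 collections, 26 for pileup and 24 for fold enrichment. The highest adjusted p-values there were 0.0300 for pileup and 0.0432 for fold enrichment, both at Acot12. The number of acyl-CoA regions called higher ran from 5 to 6 in pileup, from 5 to 7 in fold enrichment and from 0 to 1 in presence when single livers were left out, and was 3 in presence with equal numbers of top peaks. The number called lower in pileup was 0 as reported, 2 after centring, 2 after quantile normalization, 1 with a replicate block, 0 to 2 with single livers left out, and, in settings added after seeing the data, 3 (centred, without the library with fewest peaks) and 2 (centred, with collection as a covariate). The cause of these shifts was not tested.

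Within single collections, which have fewer livers, the same regions kept a positive difference in each. They had been called on these same livers, so the signs are not independent of the call. Of the 5 called in pileup, 2 passed in G74A, 0 in G92 and 2 in G99 (largest adjusted p 0.159 in G74A and 0.130 in G99); of the 5 called in fold enrichment, 1, 0 and 1 passed. Acyl-CoA regions called lower in pileup were 0, 0 and 1, and their median log2 pileup difference was 0.21 in G74A. Over all regions, pileup calls were 402, 0 and 320 higher and 1, 0 and 158 lower, and fold enrichment calls 75, 0 and 130 higher and 0, 2 and 17 lower. Signs turned in G74A upstream of Acaa1b (0.14 in pileup, 0.13 in fold enrichment), at the Acad12 promoter (0.19 and 0.079), at Hadh (0.20 and 0.10) and at the Cpt2 promoter (0.075 in pileup). They also turned in pileup at the proximal Cpt1a region in G92 (-0.13) and at Acox2 in G99 (-0.0096). None of these reversed values passed the threshold.

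Over all regions, presence calls were 153 higher and 21 lower in STAT5_High; they became 455 and 40 with equal numbers of top peaks, 47 and 1 without a filter on the number of livers, 0 and 0 when stratified by collection and 0 and 0 with a replicate block, and ran from 47 to 251 and from 1 to 43 with single livers left out. Pileup calls were 453 and 28. They became 864 and 145 after centring, 837 and 171 after quantile normalization, 923 and 52 over regions in 14 or more livers, 1064 and 198 centred without the library with fewest peaks and 858 and 206 centred with collection as a covariate, and 105 lower with a replicate block; single livers gave 323 to 823 and 11 to 90. Fold enrichment calls were 370 and 28, became 742 and 52 over regions in 14 or more livers, and 70, 80 and 74 lower under the 3 centred settings; single livers gave 266 to 509 and 12 to 46. Among single livers left out, STAT5_High replicate 4 gave the most calls higher (251 in presence and 823 in pileup, the latter over 17964 tested regions instead of 11748) and replicate 5 the fewest in presence (47). Deviations of same-numbered livers had correlations of -0.16 to 0.38. These were 0.38, 0.37 and 0.38 for replicates 1, 2 and 8, whose livers of both classes shared a collection. The other numbers crossed collections and had at most 0.18. STAT5_High replicate 1 alone correlated best with the STAT5_Low liver of its own number, so the replicate block pairs numbers only. The Cpt2 promoter's fold enrichment difference of -0.06 ran from -0.088 (without STAT5_High replicate 4) to 0.0059 (without replicate 3); none of these values passed the threshold. Depth limits presence calls at weak regions.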
